A study of Caenorhabditis elegans with 2 samples.

Results

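The genes described here encode the proteins that initiate and elongate translation and the aminoacyl-tRNA synthetases of Caenorhabditis elegans. They were taken from the Ensembl annotation of WBcel235 as the protein-coding genes whose symbol starts with eif-, eef-, ife-, iff- or inf-, or with 1 letter followed by ars-. The rule found 71 of 19973 nuclear protein-coding genes, of which 39 are translation factors and 32 are synthetases. The question was how often, and how strongly, MDT-29 was found at their promoters. MDT-29 belongs to Mediator, a large protein assembly through which transcription factors on DNA act on RNA polymerase II.

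Binding was measured by ChIP-seq, in which chromatin is precipitated with an antibody, here against GFP, and its DNA is sequenced. The worms were of strain RJP4521, which carries the CRISPR insertion rp133 at mdt-29, written Degron::GFP in one label and eGFP in another. They were L4 larvae of 48 hours, synchronised by starvation at the L1 stage after bleaching. There were 2 samples, labelled as biological replicates 1 and 2 of this single group, so no conditions could be compared. Both used whole animals, so a peak is an average over all tissues, and fewer cells with binding cannot be told apart from weaker binding per cell. An untagged strain and an input were not analysed here, and the sequencing depth is unknown.

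The deposited files are lists of peaks. A main list of 1705 peaks and a conservative list of 1690 peaks draw on both samples, and 777 and 1050 peaks were listed for replicates 1 and 2 alone. Each of these lists holds peaks whose ranks repeat under the irreproducible discovery rate (IDR). A longer ranked list stands behind each, with 68737 peaks for replicate 1 and 74857 for replicate 2. A gene was counted as bound when a main-list peak had its summit no more than 500 bp away from where one of its protein-coding transcripts begins (its 5' end). Signal is the authors' measure of a peak's strength, and for each gene it was taken from the strongest peak of a sample's ranked list inside that window.

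Translation starts when initiation factors bring the initiator tRNA and the small ribosomal subunit to an mRNA. Elongation factors then deliver charged tRNAs and move the ribosome along, and the synthetases supply those tRNAs by joining each amino acid to its tRNA. Many genes of this machinery are transcribed in all growing cells, and many of their products are abundant proteins.

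MDT-29 was found at most genes for the eEF elongation factors and at few genes of the other steps. In the main list 7 of the 71 genes were bound (9.86%), against 3.54% of all protein-coding genes (708 of 19973). Among the translation factors the count was 6 of 39 (15.4%). It was 1 of 32 for the synthetases (3.12%), which is close to the share of all genes. Of the 6 genes whose symbol starts with eef-, 5 were bound (83.3%). Counted with the 2 iff- genes for eIF5A, both unbound in the main list, the elongation factors stood at 5 of 8 (62.5%). Of the 31 genes counted by symbol as initiation factors, 1 was bound (3.23%), again close to the share of all genes.

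Of the bound genes, eef-2 and eif-3.C are left out of the sequences below. The sequences at the summits of the other 5, and of iff-2, which was bound in every list except the main one, are shown. They were read from the RefSeq genome WBcel235 on the strand of the gene, 5′ to 3′, up to 60 bases each side of the summit and without any base in an exon of a coding transcript. Capitals mark GAGAGA, the only searched motif found in them. The stretches are chrV:10965618-10965718 (plus strand) for eef-1G, chrX:7823237-7823357 (plus) for eef-1A.2, chrIII:6971987-6972107 (minus) for eef-1A.1, chrIII:7973387-7973456 (minus) for eef-1B.1, chrII:8561392-8561512 (minus) for iff-2 and chrIV:390469-390541 (minus) for ears-2.
eef-1G: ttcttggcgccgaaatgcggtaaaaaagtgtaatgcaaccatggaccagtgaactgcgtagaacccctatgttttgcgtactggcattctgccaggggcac
eef-1A.2: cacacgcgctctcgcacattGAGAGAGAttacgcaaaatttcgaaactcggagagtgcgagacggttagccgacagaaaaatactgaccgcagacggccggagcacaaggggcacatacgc
eef-1A.1: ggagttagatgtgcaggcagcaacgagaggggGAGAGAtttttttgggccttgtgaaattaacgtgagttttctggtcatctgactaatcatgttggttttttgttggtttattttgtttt
eef-1B.1: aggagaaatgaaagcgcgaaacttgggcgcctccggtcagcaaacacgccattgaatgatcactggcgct
iff-2: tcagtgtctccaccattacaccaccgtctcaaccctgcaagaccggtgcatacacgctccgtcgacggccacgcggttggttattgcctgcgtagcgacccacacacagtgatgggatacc
ears-2: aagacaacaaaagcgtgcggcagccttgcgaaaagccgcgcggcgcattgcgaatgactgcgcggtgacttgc

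Windows of 201 bp centred on the 7 main summits were searched on both strands for 8 motifs. GAGAGA was present in 2 of the 7 windows (28.6%), those of eef-1A.2 and eef-1A.1, against 26.6% of all 1705 main peaks and 27.1% of the 642 main peaks at promoters. The other motifs were in 0 of the 7 windows. For TGATGNAA this depends on a few bases, since the windows around the eef-1G summits of the replicate 1 and replicate 2 lists each hold 1 match. Their shares over all main peaks were 15.3% for GAANNTTC (heat shock element core), 12.1% for CACGTG (E-box), 4.87% for TGATGNAA (amino acid response element), 18.1% for TGATAA, a site of the GATA factors, 12.4% for TATAAA, the letters of a TATA box, 8.86% for GGGCGG (GC box) and 10.6% for GGTTCGA (B box core of tRNA genes). With 7 windows, a motif carried by few peaks may be missed. The windows of the bound genes had a median GC content of 43.8%, with a range of 35.8% to 54.7%, and the median over all main peaks was also 43.8%. In each of the 7 peaks and in that of iff-2, 0 stretches of 36 bases occurred elsewhere in the genome, also between the gene pairs that encode the same factor.

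The count of bound genes was similar in the lists made without one of the samples. In the replicate 1 list 5 of 39 translation factors (12.8%) and 1 of 32 synthetases were bound, against 1.69% of all genes. In the replicate 2 list the counts were 6 of 39 (15.4%) and 1 of 32, against 2.35% of all genes. The conservative list held 7 of 39 factors (17.9%) and 1 of 32 synthetases, against 3.5% of all genes. Of the eef- genes, 3 of 6 were bound in the replicate 1 list and 4 of 6 in the replicate 2 list. The genes eef-1A.2, eef-1G, eef-2, eif-3.C and ears-2 were bound in all 4 lists. The single-sample lists are shorter and their share of all genes is lower, while the number of bound factors stayed between 5 and 7. The members were not the same, since both single-sample lists lacked eef-1B.1 and held iff-2, which the main list did not. The replicate 1 list also lacked eef-1A.1.

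**Figure D1:**
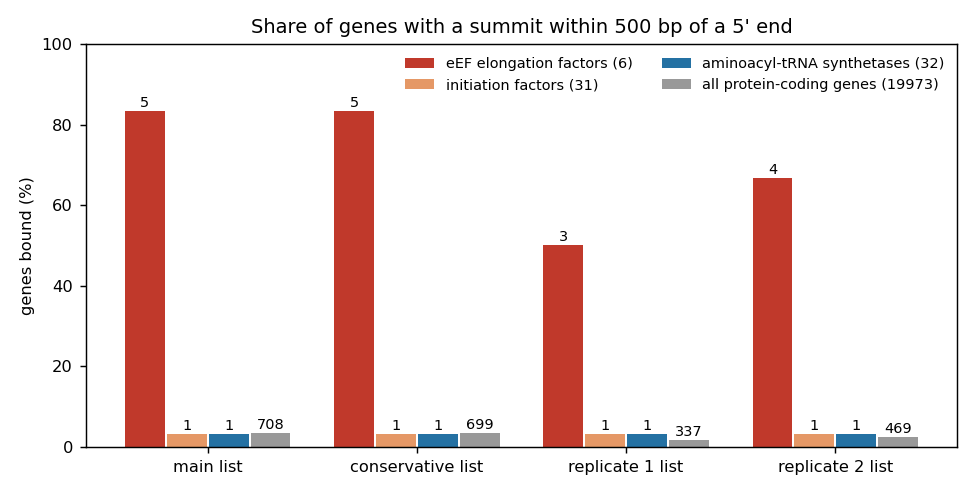
Percent of genes with an MDT-29 summit within 500 bp of a 5' end (vertical axis) in each of 4 peak lists (horizontal axis), for the 6 eEF elongation factors, the 31 initiation factors, the 32 synthetases and all protein-coding genes; numbers above the bars are counts of bound genes, and the eIF5A genes are not drawn. The elongation factor bars stand between 50% and 83.3%, while the initiation factor and synthetase bars are at 3.23% and 3.12% in each list, beside 1.69% to 3.54% for all genes.

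The strength of the signal was also read for genes without a listed peak. At least one sample's ranked list gave a value for 36 of the 39 factors (92.3%) and 30 of the 32 synthetases (93.8%), against 14531 of all 19973 genes (72.8%). The factors without a value in either sample were eif-2Bepsilon, eif-2D and eif-6, and the synthetases were iars-1 and pars-1. The median signal of the factors was 21.5 in replicate 1 (29 genes with a value) and 25.2 in replicate 2 (32 genes), against 18.1 and 20.9 for all genes. The synthetases had medians of 17.6 in replicate 1 and 23.6 in replicate 2, which lie below the median of all genes in one sample and above it in the other. The 6 eef- genes had medians of 63.7 in replicate 1 and 71.6 in replicate 2. The pair of eIF5A genes, of which one was strong and one weak, had 80.4 in replicate 1 and 82.4 in replicate 2, and the medians of the initiation factor roles lay below 30 in both samples.

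**Figure D2:**
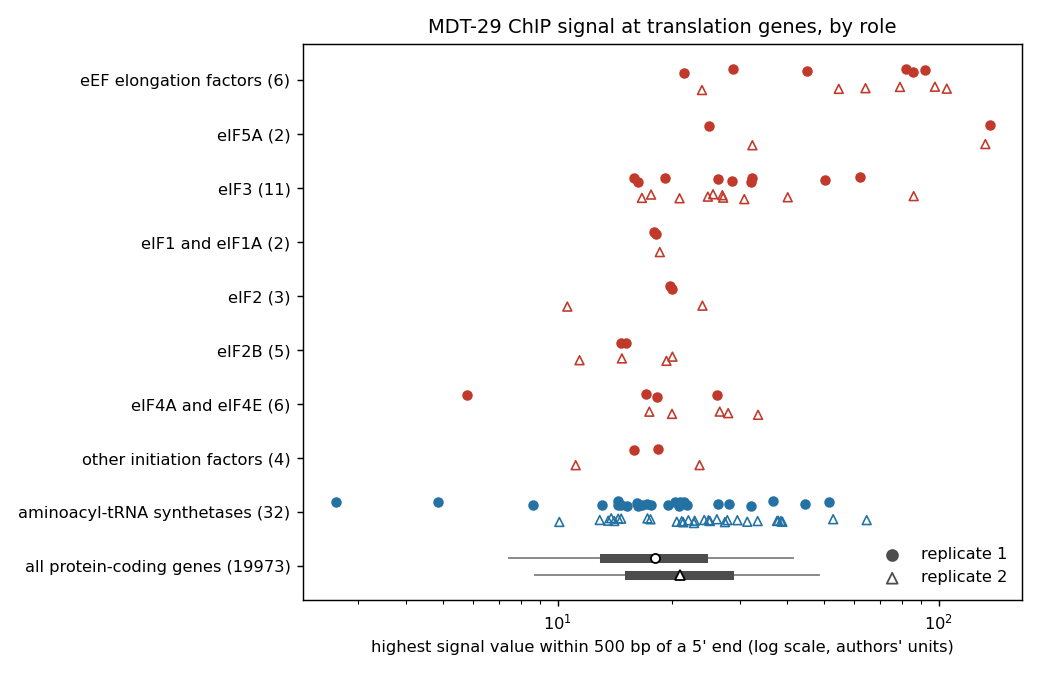
Highest ranked-list signal within 500 bp of a 5' end (logarithmic axis) for each gene, by role, in replicates 1 and 2; in the row of all genes the thin bar spans 5% to 95% of values, the thick bar the quartiles, and the white mark the median. The highest values are those of iff-2 and of most eEF genes, with eif-3.C among them, while most initiation factors and synthetases lie within the thin bars of all genes.

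Among the elongation factors, both genes for eEF1A, the GTPase that carries aminoacyl-tRNA to the ribosome, were bound. At eef-1A.2 (WBGene00001169) signal was 92.1 in replicate 1 and 79.0 in replicate 2 (mean 85.6 ± 9.27, SD, n = 2). The peak spans X:7823137-7823456, its summit lay 357 bp upstream of the 5' end, and no other gene had a 5' end in its window. The replicate 1 list held a second peak there, of signal 3.86, with its summit 174 bp upstream. At eef-1A.1 (WBGene00001168), also called eft-3, whose promoter is widely used to drive transgenes in most tissues, signal was 28.9 in replicate 1 and 64.2 in replicate 2 (46.5 ± 25.0, SD, n = 2). It is thus the bound gene whose samples differed most, at percentile 85.4 of all genes with a value in replicate 1 and at percentile 97.2 in replicate 2. Its peak at III:6971887-6972206 was not in the replicate 1 list, and the summit, 335 bp upstream, lay inside the annotated microRNA gene cel-mir-5549.

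The exchange factor eEF1B, which recharges eEF1A with GTP, differed between its genes. The gene eef-1G (WBGene00008920), for the gamma subunit, had signals of 82.2 in replicate 1 and 105 in replicate 2 (93.5 ± 16.0, SD, n = 2). Its main peak, V:10965627-10965708, was 82 bp wide with the summit 41 bp upstream of the 5' end, and ranked 197 of 1705 by signal, the highest of the bound genes. A second main peak of signal 108 lay 226 bp past the 3' end of eef-1G, at V:10967988-10968307, near no 5' end of a coding gene. For eef-1B.1 (WBGene00018846), of the beta/delta kind, signal was 45.2 in replicate 1 and 54.6 in replicate 2 (49.9 ± 6.69, SD, n = 2). Its peak at III:7973236-7973555, with the summit 10 bp upstream and inside the noncoding RNA gene F54H12.9, was in the main and conservative lists but in neither single-sample list. The related gene eef-1B.2 was the only eef- gene bound in no list, at 21.5 in replicate 1 and 23.9 in replicate 2 (22.7 ± 1.72, SD, n = 2). Both samples of eef-1B.1 were above both samples of eef-1B.2, whose values lay near the medians of all genes.

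The translocase eEF2, which moves the ribosome by one codon, is encoded by eef-2 (WBGene00001167). Signal there was 85.6 in replicate 1 and 97.6 in replicate 2 (91.6 ± 8.51, SD, n = 2), at percentiles 99.0 and 98.8. The peak, I:9163371-9163690, had its summit on the first base of the gene, the only bound summit that lay in an exon.

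Factor eIF5A carries the modified lysine hypusine and helps the ribosome through difficult stretches such as runs of proline. Of its 2 genes, iff-2 (WBGene00002065) had the highest signal of all 71 genes, 136 in replicate 1 and 132 in replicate 2 (134 ± 2.50, SD, n = 2). It was bound in both single-sample lists and in the conservative list, where its peak at II:8561367-8561524 had a signal of 260, ranked 103 of 1690 and had its summit 85 bp upstream. It was not bound in the main list, nor did any summit of the main ranked list lie in its window. Over the genome 261 genes were bound in the other 3 lists, 3 of these were not bound in the main list, and iff-2 was the only one without even a ranked main summit. The other gene, iff-1, had 25.0 in replicate 1 and 32.4 in replicate 2 (28.7 ± 5.26, SD, n = 2) and was bound in no list. Both samples of iff-2 stood above both of iff-1, a gene known to act in the germ line.

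Of the initiation factors only eif-3.C was bound. It encodes a core subunit of eIF3, the large complex that binds the small ribosomal subunit and helps it take up mRNA. At eif-3.C (WBGene00001226) signal was 62.2 in replicate 1 and 85.9 in replicate 2 (74.0 ± 16.8, SD, n = 2), and the peak at I:9979748-9980067 had its summit 246 bp upstream. The other 10 genes with an eif-3 symbol were not bound. The median signal over the eif-3 genes with a value, eif-3.C included, was 28.6 in replicate 1 and 26.3 in replicate 2. Next in strength by the mean of both samples was eif-3.B, with 50.2 in replicate 1 and 24.8 in replicate 2. After it came eif-3.I, with 32.4 and 27.2 in replicates 1 and 2. In replicate 2 alone eif-3.K (40.1, with 15.9 in replicate 1) and eif-3.J (30.9, with 26.3 in replicate 1) were above both. The gene eif-3.E, at 32.2 in replicate 1, had no value in replicate 2 and so no mean. At eif-3.B the samples differ so far that its percentile was 97.1 in replicate 1 and 65.1 in replicate 2.

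The complexes that handle the initiator tRNA showed no listed peak at a promoter. All 3 genes of eIF2, which brings the initiator tRNA, and all 5 genes of its exchange factor eIF2B were unbound in each list. So were both genes of eIF1 and eIF1A, which guide start codon choice. Only 1.69% to 3.54% of all genes were bound in these lists. The lack of a bound gene among so few therefore does not set these complexes apart. For eIF2B, medians were 14.9 in replicate 1 and 17.0 in replicate 2, below the medians of all genes, though only 2 and 4 of the 5 genes had a value. Outside the windows, the main summit nearest to the 5' end of an unbound translation factor gene was 734 bp from that of eif-2Bgamma. The farthest summit within the window was that of eef-1A.2. Of the eIF4 factors, the cap-binding eIF4E genes (ife-1 to ife-5) and the helicase gene inf-1 were also unbound. The strongest of these was ife-5, at 26.2 in replicate 1 and 33.5 in replicate 2. The remaining genes counted by symbol with the initiation factors, eif-2A, eif-2D, eif-4A3 and eif-6, were unbound too.

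Among the synthetases the single bound gene was ears-2 (WBGene00001338), named in RefSeq as the mitochondrial glutamyl-tRNA synthetase. Signal was 51.4 in replicate 1 and 64.6 in replicate 2 (58.0 ± 9.35, SD, n = 2), at percentiles 97.2 and 97.3. The peak at IV:390321-390640 had its summit 13 bp upstream of ears-2 and 79 bp upstream of uncp-18 on the other strand, whose ends are 91 bp apart. The other 31 synthetase genes were unbound in each list. By the mean of both samples, the strongest of the unbound synthetases was qars-1 (glutamine), with 32.1 in replicate 1 and 38.8 in replicate 2. Next were gars-1 (glycine), with 44.6 and 24.2 in replicates 1 and 2, and aars-1 (alanine), with 15.2 and 52.8. The order of gars-1 and aars-1 thus turned between samples, and only qars-1 had a similar rank in both, at percentiles 89.4 and 90.8. The main summit nearest to the 5' end of any unbound synthetase gene was 972 bp away from it, at kars-1.

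Another reading by rank, chosen after the values were seen, asked for signal in the top 5% of genes with a value in both samples. The signals come from the same samples and windows as the listed peaks, so this reading gives no independent support to the counts above. It held for 6 of the 39 factors (15.4%) and 1 of the 32 synthetases, against 1.87% of all genes. These were eef-1A.2, eef-1B.1, eef-1G, eef-2, iff-2, eif-3.C and ears-2, so iff-2 came in and eef-1A.1 fell out relative to the main list.

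**Figure D3:**
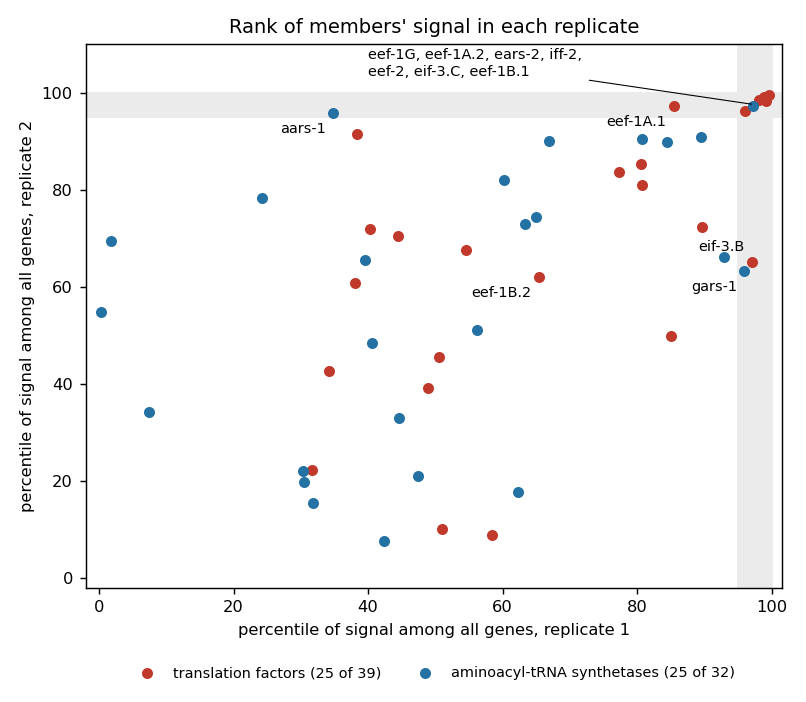
Percentile of each gene's signal among all genes with a value, replicate 1 (horizontal) against replicate 2 (vertical), for the 25 factors and 25 synthetases with a value in both samples; grey bands mark the top 5%. The 7 named genes at the top right are in the top 5% of both samples, while aars-1, gars-1, eif-3.B and eef-1A.1 are in it for 1 sample.

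Set against other bound genes, most of these 7 had peaks above the median strength but far below the strongest. Their main-list signals ran from 80.8 to 189 with a median of 148, and 5 of 7 were above 104, the median of the 708 bound genes, whose highest signal was 4953. By rank they stood between 197 and 1294 of 1705 peaks. The summit was upstream of the 5' end in 6 of the 7 genes and on it in 1, less than 50 bp away in 4 and over 200 bp away in 3.

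Of these 7 peaks, 5 had a summit close to the 5' ends of a divergent gene pair. In 5 of 7 cases (71.4%) the summit was also within 500 bp of the 5' end of another gene, always on the opposite strand. Counted the same way per gene, 231 of the 708 bound genes (32.6%) shared a peak with another gene, and for 199 of them (28.1% of all bound genes) the other genes were all on the opposite strand. The neighbours were ctf-4 beside eef-1G, clsp-1 beside eef-2, rfc-4 beside eef-1A.1, aco-2 beside eef-1B.1 and uncp-18 beside ears-2. For 4 of the 5 the summit was nearer to the translation gene, at 41 against 139 bp for eef-1G, 0 against 265 for eef-2, 10 against 321 for eef-1B.1 and 13 against 79 for ears-2. For eef-1A.1 it was 335 bp from the 5' end of eef-1A.1 and 206 bp from that of rfc-4. A peak cannot be assigned to one gene of such a pair from its position. At eef-1A.2, eif-3.C and iff-2 no other gene had a 5' end in the window. No bound summit lay within 250 bp of a tRNA, snRNA or snoRNA gene.

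**Figure D4:**
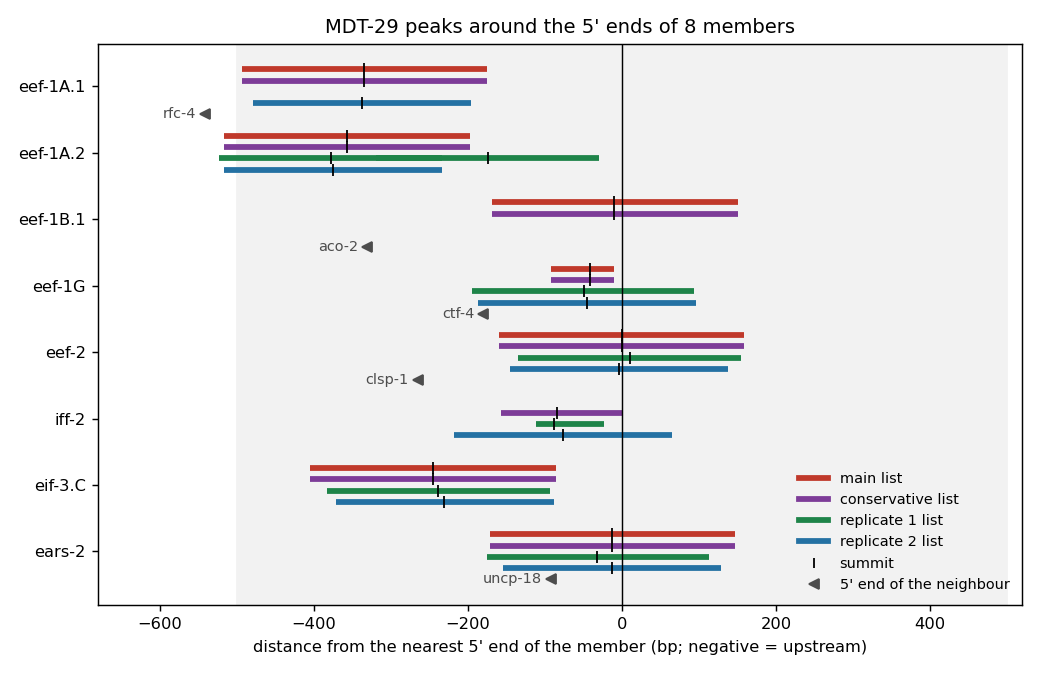
Peaks of the main, conservative, replicate 1 and replicate 2 lists around the 5' ends of 8 genes, as distance in bp (negative is upstream) from the member's nearest 5' end; ticks are summits, triangles the 5' ends of neighbours, and the shaded band is the 500 bp window. The strongest summits of the different lists fall at nearly the same place for each gene, eef-1A.2 has a second, weak peak in the replicate 1 list, and iff-2 has bars in 3 lists but none in the main list.

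Other genes of translation control were read from a list of 30, of which 28 were found in the annotation by symbol. In the main list 2 were bound (7.14%), against 3.54% of all genes. The stronger was drr-2, an RNA-binding protein related to human eIF4H, with a main-list signal of 432, 221 in replicate 1 and 195 in replicate 2, and a summit 167 bp upstream that is shared with set-16. The other was pek-1, the PERK-type kinase that phosphorylates eIF2 alpha, with a main-list signal of 142, 57.6 in replicate 1 and 82.8 in replicate 2. The replicate 1 list held 4 of the 28 (14.3%), against 1.69% of all genes, adding ifet-1, which binds eIF4E, and pab-1, a poly(A)-binding protein. The replicate 2 list held 2 (7.14%), against 2.35% of all genes. At ifet-1 the signal was 125 in replicate 1 and 23.0 in replicate 2, and its summit, 493 bp upstream, was also at the ribosomal protein gene rps-1. The genes of release, of stalled-ribosome rescue and of the mitochondrial elongation factors among the 28 were bound in no peak list. They are few, and only 1.69% to 3.54% of all genes were bound in the peak lists, so this does not set them apart. Of these genes, erfa-3, hbs-1, pelo-1 and tsfm-1 had no value in either sample.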

How the data were processed

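The authors deposited peak lists for ce11, per the labels. The aligner and peak caller are not given in the sources used here. The signal value of each peak was deposited by the authors, and its scaling between samples is unknown, so SDs include any difference in scale. The score deposited by the authors is a scaled IDR, and no listed peak scores under 830. No sample column was left unmapped.

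Coordinates count from 1. Genes and 5' ends came from Ensembl release 115. A gene took the strongest ranked peak with a summit in its window in each sample, and percentiles are over genes with a value. Counts stand beside those of all genes without a test, since genes are not replicates. The members, gene lists and motifs were chosen with earlier results of these data known. Genes named were those bound in any list, bound genes of the second list and genes sharing a summit. Also named were the 3 unbound genes of each group with the highest mean signal over both samples. Peaks elsewhere, genes without a value, eef-1B.2, iff-1, eif-2Bgamma, eif-3.E, eif-3.J, eif-3.K and kars-1 were named after their values were seen. Gene matching was tested on simulated data. Python 3.11.15, numpy 2.4.6, pandas 2.3.3 and matplotlib 3.10.9 were used.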

Additional observations from a re-analysis of the deposited data

How the results depend on the processing

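No paired analysis was possible because both samples form 1 group. The number of bound translation factors stayed between 4 and 7 of 39 (10.3% to 17.9%) in the settings tried. It was 4 with only the peaks above the median signal (eef-1A.1 and eef-1B.1 lost) or with a 250 bp window (both eEF1A genes lost), 5 when each peak went to its nearest gene (eef-1A.1 lost), and 7 at 1000 bp (eif-2Bgamma gained). The conservative list, and pooling it with the main list (chosen after seeing the data), also gave 7, with iff-2 gained. Single-sample lists gave 5 to 6, with iff-2 gained and eef-1B.1 lost in both and eef-1A.1 lost in replicate 1. The synthetase count was 1 except at 1000 bp, where kars-1 made it 2 (6.25%), against 1017 of all genes (5.09%). Of all genes, 394 (1.97%) were bound above the median signal, 421 (2.11%) at 250 bp and 598 (2.99%) by nearest gene. The conservative list held 3.5% of all genes, the pooled lists 808 (4.05%) and the single-sample lists 337 to 469 (1.69% to 2.35%). Other translation genes bound numbered 6 at 1000 bp (21.4%), against 5.09% of all genes. By peak overlap they numbered 4 (14.3%), against 808 or 4.05% of all genes. In the replicate 1 list they numbered 4 (14.3%) against 1.69%, and in the replicate 2 list 2 (7.14%) against 2.35%. The median factor signal, 23.3 as the mean of both samples, was 28.1 at 1000 bp. The mean signal of eef-1A.2 was 8.09 at 250 bp, which leaves out its main summit. No value exists for eef-1A.1 at 250 bp. With 2 samples, no untagged control and unknown depth, an unlisted gene is not shown to be unbound.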

Other observations

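Main peaks also lay near some of these genes away from their 5' ends. They were 219 bp past the 3' end of fars-2 (signal 71.5), 198 bp past that of eif-2alpha (88.2), and inside fars-1 (122), where the summit was 10 bp from the snoRNA gene T08B2.13. None of these summits was within 500 bp of a 5' end of a coding gene. Of the 5 genes that share a bound summit, ctf-4, clsp-1 and rfc-4 are related to replication proteins of other eukaryotes. This was seen after the names were known and was not tested.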
